A study of Mus musculus with 36 samples.

Results

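The TAM receptors are the 3 related receptor tyrosine kinases Tyro3, Axl and Mertk. They are described here with their secreted ligands Gas6 and Pros1 (protein S), and with Mfge8, a secreted protein that does a similar bridging job through other receptors. These 6 genes, of 30205 genes in the files, were taken by symbol. The members were chosen by family and selected on 1 measured value: it was known that Gas6 was lower in Mir324-null than in wild-type macrophages, so the difference between genotypes in macrophages is given below as a description, with no test.

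RNA was sequenced from 3 kinds of cultured primary mouse bone cells, with an intact (WT, wild type) or a deleted (null) microRNA gene Mir324, all from mice 20 weeks old. Bone marrow macrophages (BMM) were kept in M-CSF, the macrophage growth factor, at 30 ng/mL for 5 days. The cultures labelled osteoclasts (OC) came from the same kind of precursor and received M-CSF at 30 ng/mL with RANK-L, the cytokine that drives osteoclast formation, at 50 ng/mL for 5 days. Osteoblasts (OB) were grown out of bone chips and kept in osteogenic medium for 18 days. There were 6 groups of 6 libraries, which makes 36, with 14118972 to 26347581 estimated counts per library. The labels give no strain, sex or batch, and do not say how the null allele was made or whether the replicates came from separate mice. P-values therefore measure only the spread between these libraries, which may be technical. Any batch aligned with genotype and genotype itself cannot be told apart.

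Dying cells expose the lipid phosphatidylserine on their surface. Gas6 and protein S are vitamin K-dependent proteins that hold this lipid at one end and a TAM receptor at the other, so that a phagocyte can take up the dying cell. Gas6 binds all TAM receptors, whereas protein S acts through Tyro3 and Mertk. Mertk is the receptor best known for this uptake in resting macrophages, and Axl is often found in inflamed or mesenchymal cells. Mfge8 also binds phosphatidylserine but hands the dying cell to αv integrins. In bone, macrophages and osteoclasts both engulf debris, and both arise from the same marrow precursor.

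The marker genes raised 1 doubt about the labels. Osteoclast markers (8 genes, among them the protease Ctsk and the calcitonin receptor Calcr) summed to between 30996 and 35343 TPM (a transcript level scaled for transcript length and for library size) in WT OC. In the null libraries labelled osteoclast they summed to between 233 and 569 TPM, and Calcr was listed at 0 in every one of them. The 8 macrophage markers summed to between 53048 and 62526 TPM in null OC, to between 15748 and 17640 TPM in WT OC, and to between 56411 and 59108 TPM in null BMM. Osteoblast cultures held the 8 osteoblast markers at 21363 to 30475 TPM in WT and 36731 to 50439 TPM in null libraries, beside macrophage markers at 14784 to 18689 and 8625 to 13393 TPM. They also held the 8 osteoclast markers, at 4090 to 5144 TPM in WT and 5339 to 8072 TPM in null libraries. Since these are bulk samples, fewer cells of a type and less RNA per cell cannot be told apart.

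The mature arms made from Mir324 are shown because it is the gene deleted in the null mice, though its levels were not analysed here. The capitals mark the seed, bases 2 to 8, and the sequences are from RefSeq (GRCm38.p6). The arms have different seeds.
miR-324-5p: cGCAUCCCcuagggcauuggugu
miR-324-3p: cCACUGCCccaggugcugcu
The 7-base matches to these seeds, GGGATGC and GGCAGTG, were looked for in 3′ UTRs (GENCODE M21, GRCm38, the longest one per gene). These ran from 372 bases in Gas6 to 1389 bases in Axl, and none of the 6 held either match. Among 21022 genes with a 3′ UTR, 7.387% held the first and 12.672% the second. This says only that these letters are absent from these windows.

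Gas6 lies on chr8:13465374-13494490 (GRCm38, minus strand), Pros1 on chr16:62854307-62929346 (plus), Tyro3 on chr2:119797733-119818104 (plus), Axl on chr7:25757273-25788705 (minus), Mertk on chr2:128698956-128802894 (plus) and Mfge8 on chr7:79133768-79149060 (minus). The receptors and their ligands are thus not neighbours in the genome. The promoters of Gas6, Axl and Mfge8 follow, from 250 bases before to 50 bases after the RefSeq start (GRCm38.p6, minus strand, 5′ to 3′), because Gas6 and Axl were lower and Mfge8 higher in WT OC than in WT BMM. Capitals mark the GC box GGGCGG and the PU.1 core GAGGAAG on either strand.
Gas6 (chr8:13494486-13494785): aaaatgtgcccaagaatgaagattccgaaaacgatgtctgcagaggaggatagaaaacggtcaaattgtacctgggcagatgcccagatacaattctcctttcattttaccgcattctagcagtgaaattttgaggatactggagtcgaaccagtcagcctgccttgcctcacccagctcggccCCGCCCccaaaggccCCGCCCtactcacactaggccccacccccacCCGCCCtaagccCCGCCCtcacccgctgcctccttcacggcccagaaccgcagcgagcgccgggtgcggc
Axl (chr7:25788684-25788983): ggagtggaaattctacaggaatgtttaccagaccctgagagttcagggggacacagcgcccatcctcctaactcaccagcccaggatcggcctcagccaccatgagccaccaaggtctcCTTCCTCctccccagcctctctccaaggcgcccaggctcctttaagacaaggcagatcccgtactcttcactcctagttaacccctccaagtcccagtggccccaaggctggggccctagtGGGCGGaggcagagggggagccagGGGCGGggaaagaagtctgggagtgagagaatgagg
Mfge8 (chr7:79149011-79149310): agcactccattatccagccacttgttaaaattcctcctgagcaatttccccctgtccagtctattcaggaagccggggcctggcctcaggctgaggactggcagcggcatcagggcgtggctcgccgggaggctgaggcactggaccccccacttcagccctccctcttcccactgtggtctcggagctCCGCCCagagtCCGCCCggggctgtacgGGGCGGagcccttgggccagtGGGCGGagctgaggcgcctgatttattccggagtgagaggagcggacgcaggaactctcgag
The GC box was found 4 times in the Gas6 window, 2 times in that of Axl and 4 times in that of Mfge8, and it was also present in the windows of Pros1 (5), Mertk (4) and Tyro3 (6), where copies can overlap. It occurred in 35.658% of 32851 promoters of the same length. The PU.1 core, the site of a master regulator of myeloid cells, was in the Axl window alone among the 6 (13.628% of promoters). The E-box CACGTG (7.15% of promoters) and the AP-1 site TGACTCA (5.202%) were in none of the 6. A match is a description of letters and not a bound site.

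Gas6 was the most abundant of the 6 genes in every group. In WT BMM it ran from 1485 to 1676 TPM with a median of 1598, and in null BMM from 253 to 318 TPM with a median of 259.7. These groups lay far apart. In WT OC it ran from 219 to 261 TPM (median 227), and in null OC from 167 to 307 TPM (median 272). The null OC libraries thus spanned the whole WT OC range, with replicates 3 and 6 at the bottom. In WT OB it ran from 668 to 973 TPM (median 803), and in null OB from 531 to 665 TPM (median 603), with no overlap. WT BMM therefore stood highest, followed by WT OB and null OB, while null BMM, null OC and WT OC overlapped each other in turn and could not be ordered.

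Pros1, the second ligand, had the reverse bias between cell types and was highest in osteoblasts. It ran from 87.9 to 116 TPM (median 104) in WT OB and from 106 to 144 TPM (median 124) in null OB, and these groups overlapped. In WT BMM it was at 27.0 to 35.4 TPM (median 28.4), in null BMM at 22.9 to 39.2 TPM (median 28.2) and in null OC at 18.8 to 36.5 TPM (median 30.1), 3 groups that overlapped. WT OC alone was low, at 4.38 to 7.11 TPM (median 5.79).

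Mertk, the receptor of resting macrophages, was highest in WT BMM, at 32.6 to 42.0 TPM (median 34.6). Null BMM had 12 to 19.4 TPM (median 14.6) and null OC 8.89 to 17.6 TPM (median 16.4). WT OB had 9.56 to 12 TPM (median 11.1) and null OB 6.24 to 10.9 TPM (median 9.61). WT OC was lowest, at 4.52 to 7.11 TPM (median 5.79). Below WT BMM each group overlapped the next in this order, so the middle of the order is not resolved.

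Axl was an osteoblast gene in these cultures. It ran from 94.8 to 149.6 TPM (median 111) in WT OB and from 149 to 188 TPM (median 168) in null OB, where only the lowest null library fell inside the WT range. WT BMM had 11.1 to 17.3 TPM (median 14.1), null BMM 3.41 to 7.11 TPM (median 5.14), null OC 3.41 to 5.19 TPM (median 4.28) and WT OC 0.836 to 2.34 TPM (median 1.83). Null BMM and null OC overlapped, and WT OC lay below every other group.

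Tyro3, known mainly from the nervous system, was scarce. It had 31 to 62 counts per library in WT OB and 41 to 96 in null OB, or 0.885 to 1.45 TPM (median 1.08) and 1.00 to 1.97 TPM (median 1.32). All 6 WT BMM and all 6 WT OC libraries held at most 3 counts, the floor used here for detection. In null BMM 5 of 6 and in null OC 4 of 6 libraries were at or under that floor, with up to 11 and 24 counts in the rest. Against a floor of 3 counts per library, WT OB was at least 15.99-fold above WT BMM and at least 15.2-fold above WT OC. Tyro3 passed the filter on low counts only where osteoblasts entered the fit.

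Mfge8 was highest in null OB, at 330.3 to 393 TPM (median 368), and next in WT OB, at 256 to 292 TPM (median 277). WT OC followed at 152 to 194 TPM (median 166). WT BMM had 65.3 to 77.5 TPM (median 69.0), null BMM 52.0 to 63.9 TPM (median 56.0) and null OC 58.6 to 75.7 TPM (median 73.4). Null OC overlapped both WT BMM and null BMM, and no other groups overlapped.

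**Figure D1:**
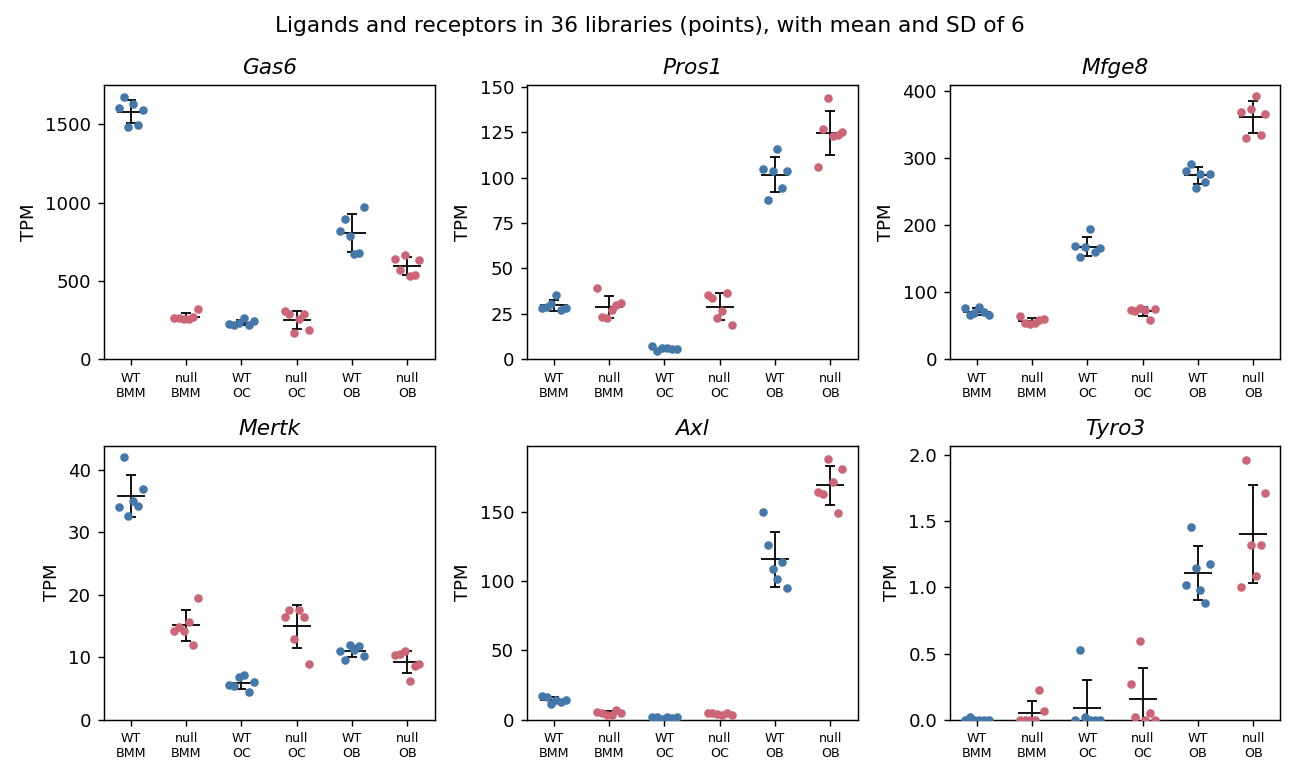
Level of each gene in TPM (linear axis from 0, separate for each gene) in 36 libraries, blue for WT and red for null, with the mean and SD of 6 libraries per group. Gas6 and Mertk stand highest in WT BMM, Pros1, Axl, Tyro3 and Mfge8 in osteoblast cultures, and in WT OC only Mfge8 lies above its WT BMM level without overlap.

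Between cell types in WT, all 5 genes counted in both groups were called higher in osteoblasts than in osteoclasts, where 77.9% of 14268 genes were called at an adjusted p under 0.05, 41.3% higher and 36.7% lower (quasi-likelihood test in edgeR, adjusted by Benjamini-Hochberg across every gene tested). Tyro3 is left out of this count and of the next, since it passed the filter only through the osteoblast libraries, and its bounds stand above. Axl differed most, by 7.28 on the log2 scale (SE 0.18, adjusted p 1.31e-28), then Pros1 by 4.25 (SE 0.12), Gas6 by 1.87 (SE 0.10), Mertk by 0.94 (SE 0.13) and Mfge8 by 0.78 (SE 0.06). With osteoblasts against macrophages, Axl, Pros1 and Mfge8 were called higher and Mertk lower, against 76.8% of all genes, 41.5% higher and 35.3% lower. Mertk was lower in WT OB by a log2 difference of -1.81 (SE 0.13, adjusted p 2.18e-15). For Gas6 the difference was -1.01 (SE 0.10). Since its macrophage values chose the set, Gas6 is given with no test in every comparison with macrophages. The osteoblast cultures held macrophage markers as well, and the part of those cells in the osteoblast levels of Gas6 and Mertk was not tested.

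In WT, OC libraries held lower levels of both ligands and both measurable receptors than BMM libraries, and a higher level of Mfge8. Of the 4 genes tested other than Gas6, all were called, 1 higher and 3 lower, beside 60.5% of 12661 genes (30.4% higher, 30.1% lower). Axl fell by 4.24 on the log2 scale (SE 0.18, adjusted p 2.06e-17), Mertk by 2.75 (SE 0.13, adjusted p 2.05e-16) and Pros1 by 2.54 (SE 0.13, adjusted p 5.86e-16) in edgeR's quasi-likelihood test. Mfge8 rose by 1.09 (SE 0.07, adjusted p 2.58e-13). The Gas6 difference, as a description, was -2.88 (SE 0.10). In each case the 6 OC libraries lay wholly outside the range of the 6 BMM libraries. There is no share of all genes to set beside this. The size for Axl depended on the scale and on how transcripts of different length were treated. On the log2(TPM + 1) scale the added 1 TPM also shrinks differences at low levels, and WT OC averaged 1.77 TPM. It was -4.24 from counts, -3.20 with an offset for average transcript length and -2.48 on the log2(TPM + 1) scale. The full coding transcript Axl-201 itself was at 0.586 ± 0.0787 TPM in WT OC and 10.5 ± 1.62 TPM in WT BMM (SD, n = 6).

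In null cultures 3 of the 4 genes tested other than Gas6 had no call between OC and BMM. The log2 differences of null OC from null BMM were -0.04 for Pros1 (SE 0.12, adjusted p 0.843), -0.26 for Axl (SE 0.16, adjusted p 0.276) and -0.06 for Mertk (SE 0.12, adjusted p 0.772), by edgeR. For Gas6 the difference, as a description, was -0.17 (SE 0.10). Mfge8 was called higher, by 0.29 (SE 0.07, adjusted p 0.0126), the 1 call among 4 genes beside 12.9% of all genes (6.78% higher, 6.07% lower). That call was lost with voom quality weights (0.24) and without null OC replicates 3 and 6 (0.22). These 2 libraries were the lowest of their group for Gas6, Pros1 and Mertk. They also had the fewest estimated counts of all 36 libraries, 14638162 and 14118972. The responses of the genotypes differed by 3.98 for Axl, 2.71 for Gas6, 2.69 for Mertk, 2.50 for Pros1 and -0.80 for Mfge8 on the log2 scale. These differences hold the macrophage contrast between genotypes and are therefore given with no test. All 5 genes were past the threshold there, 4 with a positive and 1 with a negative difference, as were 51.4% of all genes (25.3% and 26.1%), and nothing is read from this count. The comparisons of OC with BMM and of null with WT share their libraries, and the values are shown side by side for that reason in the plot of fold changes.

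**Figure D2:**
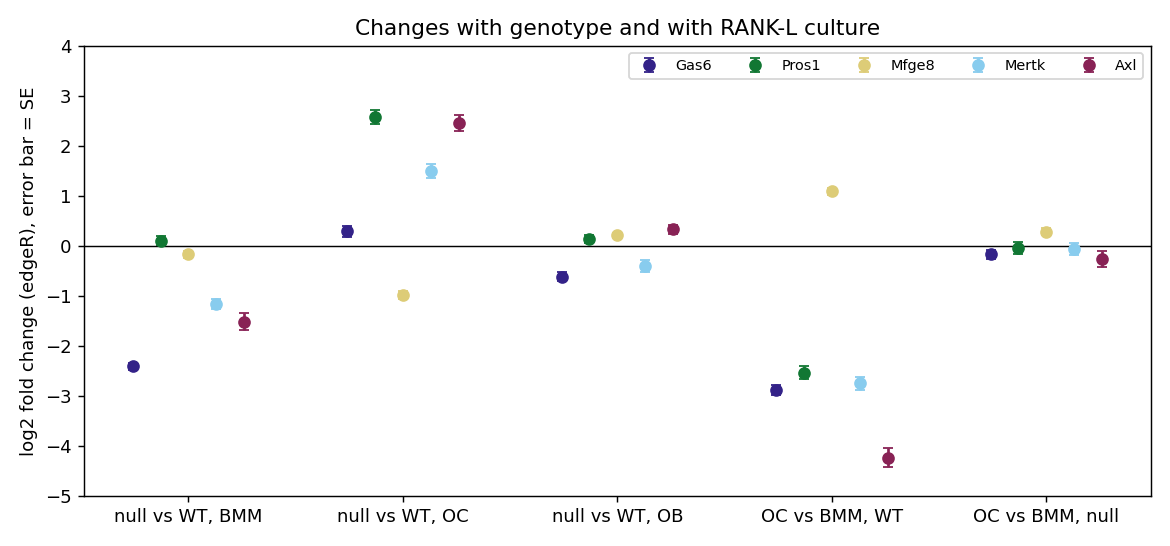
Log2 fold change (edgeR, error bar SE) of 5 genes for null against WT in each culture and for OC against BMM in each genotype; Tyro3 is left out because it did not pass the filter in the myeloid fits. Axl, Mertk, Pros1 and Gas6 lie between -2.54 and -4.24 for OC against BMM in WT and between -0.04 and -0.26 in null cultures, and Mfge8 runs the other way in WT.

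In macrophages, the contrast that brought the set together, Gas6 averaged 269 ± 24.5 TPM in null and 1580.2 ± 75.0 TPM in WT libraries (SD, n = 6 each), a log2 difference of -2.41 (SE 0.07). Axl differed by -1.52 (SE 0.17) and Mertk by -1.17 (SE 0.10). The null libraries lay below all WT libraries for these 3 genes, with no share of all genes to set beside this, and nothing is read from it. Mfge8 differed by -0.17 (SE 0.07), with null libraries reaching 63.9 TPM and WT libraries starting at 65.3 TPM. Pros1 differed by 0.09 (SE 0.10) and its ranges overlapped. Of the 5 genes, 4 were past the threshold, all lower, beside 52.3% of 11925 genes (27% higher, 25.4% lower), from which nothing is read.

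In the cultures labelled osteoclasts, null libraries held more Pros1, Axl and Mertk and less Mfge8 than WT libraries. All 5 genes tested were called, 4 higher and 1 lower, beside 65.6% of 12121 genes (32.4% higher, 33.1% lower). Pros1 was higher by 2.58 on the log2 scale (SE 0.13, adjusted p 3.75e-11, edgeR), from 5.79 ± 0.889 to 28.9 ± 7.32 TPM (SD, n = 6). Axl was higher by 2.45 (SE 0.16, adjusted p 7.06e-10), and Mertk by 1.50 (SE 0.14, adjusted p 8.26e-08), from 5.92 ± 0.977 to 15.0 ± 3.44 TPM. Mfge8 was lower by a log2 difference of -0.99 (SE 0.08, adjusted p 5.98e-09), from 168 ± 14.1 to 71.3 ± 6.41 TPM. For these 4 genes the groups did not overlap, with no share of all genes to set beside this. The Axl value was 1.51 with an offset for average transcript length. It was 0.94 on the log2(TPM + 1) scale, where the added 1 TPM also shrinks differences at low levels. Short transcripts annotated as retained introns, such as Axl-207 at 0.498 ± 0.500 TPM, stood beside Axl-201 at 0.586 ± 0.0787 TPM in WT OC.

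Gas6 differed little between the genotypes in OC. Its log2 difference was 0.29 (SE 0.11, adjusted p 0.0306, edgeR) while the ranges overlapped throughout. The call was lost with no filter, on the log2(TPM + 1) scale (0.06), and in 8 of 12 fits that each left out 1 library (WT OC replicate 1, 2, 3 or 5, or null OC replicate 1, 2, 4 or 5). Without null OC replicates 3 and 6 it was 0.48 and called. Beside these values, the osteoclast markers other than Calcr were all called lower in null than in WT OC. Calcr, listed at 0 in every null OC library, passed the filter only through WT OC, so its call is no test. Of the 8 macrophage markers 6 were called higher and 1 (Cd68) lower. Among all genes 32.4% were called higher and 33.1% lower. The 8 osteoblast markers summed to 31.2 ± 23.9 TPM in null OC and 2.56 ± 0.523 TPM in WT OC (SD, n = 6). Their sum was 21.9 ± 8.87 TPM in null BMM and 4.76 ± 1.90 TPM in WT BMM, against 23907 TPM in WT OB. The part of all these markers in the differences of Pros1, Axl, Mertk and Mfge8 was not tested. For each of the 5 genes the mean of null OC lay within 1.26-fold of null BMM.

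In osteoblast cultures both Gas6 and Mertk were lower and both Axl and Mfge8 higher in null than in WT libraries. Gas6 fell by 0.62 on the log2 scale in null cultures (SE 0.09, adjusted p 1.28e-04) and Mertk by 0.40 (SE 0.12, adjusted p 0.0166), while Axl rose by 0.33 (SE 0.09, adjusted p 0.0154) and Mfge8 by 0.21 (SE 0.05, adjusted p 0.0051), all by edgeR. Of 6 genes, 2 were called higher and 2 lower, beside 32.5% of 13607 genes (15.5% higher, 16.9% lower). Only Gas6 and Mfge8 had groups that did not overlap, with no share of all genes to set beside this. Pros1 differed by 0.13 (SE 0.08, adjusted p 0.193) and Tyro3 by 0.20 (SE 0.20, adjusted p 0.475). The Axl call was lost when each library's trend with gene length was removed (0.23), and the Mertk call on the log2(TPM + 1) scale (-0.24), where Pros1 was called at 0.29. On that scale the median of all genes itself moved by 0.14.

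Marker genes are set beside these results, and macrophage markers did not all move the same way. Of the 8, 5 were called lower in null OB (Adgre1, Fcgr1, Cd68, Cd14 and Lyz2) and none higher. Csf1r, Ptprc and Itgam were not called. In TPM Csf1r went the other way, from 208 to 260 in WT OB and from 262 to 295 in null OB. The sum of all 8 did not overlap between genotypes. It averaged 16819 TPM in WT OB, of which Adgre1, Cd68 and Csf1r held 288, 1245 and 241 TPM. Of the 8 osteoblast markers, 4 were called higher (Col1a1, Col1a2, Ibsp and Dmp1) and 1 lower (Postn), and of the 8 osteoclast markers 3 were called higher. Among all genes 15.5% were called higher and 16.9% lower. The lower members, Gas6 and Mertk, are the ones that stood higher in WT BMM than in WT OB, while Axl and Mfge8 stood higher in WT OB. Pros1 and Tyro3 also stood higher in WT OB and were not called between the OB genotypes. The markers' part in the result was not tested.

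**Figure D3:**
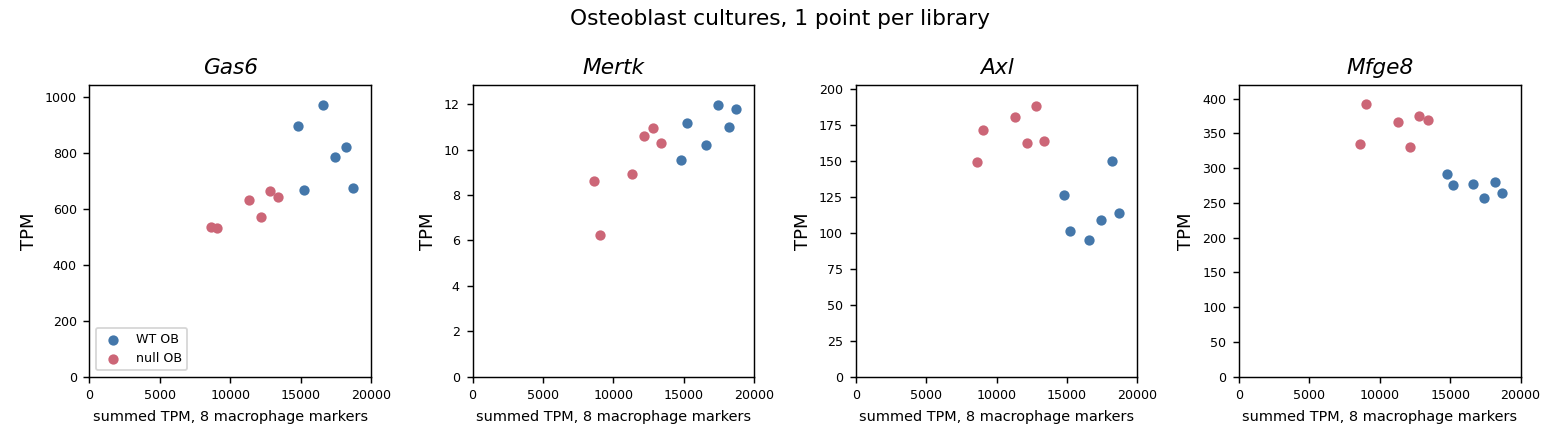
Level of Gas6, Mertk, Axl and Mfge8 in TPM against the summed TPM of 8 macrophage markers in the 12 osteoblast libraries, 1 point each, blue for WT and red for null, all axes linear from 0. The null libraries lie between 8625 and 13393 on the marker axis and the WT libraries between 14784 and 18689.

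The genotype difference in osteoblasts was set against that in OC in a fit of all libraries that does not use the macrophage contrast. All 5 genes counted in both cell types were called, 1 higher and 4 lower, beside 55.2% of 14268 genes (27.8% higher, 27.4% lower). The difference was -2.43 for Pros1 (SE 0.16, adjusted p 5.14e-16), -1.89 for Mertk (SE 0.18, adjusted p 3.42e-11), -0.89 for Gas6 (SE 0.14, adjusted p 8.99e-07) and 1.22 for Mfge8 (SE 0.09, adjusted p 3.98e-14) on the log2 scale, in edgeR's quasi-likelihood test. For Axl it was -2.11 (SE 0.22, adjusted p 1.97e-10), but -1.21 with the offset for average transcript length and -0.39 and not called on the log2(TPM + 1) scale. For Tyro3, which passed the filter only through the osteoblast libraries and was near 0 in OC, the fitted value of -3.23 (SE 1.16) is no test. It was -2.22 without null OC replicate 3, -2.51 without replicates 3 and 6, -2.83 with the offset for average transcript length, -1.47 with voom quality weights and 0.10 on the log2(TPM + 1) scale.

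The makeup of the receptors separated the cell types. In WT BMM Mertk supplied 71.5 ± 2.81% of the summed TPM of the 3 receptors and Axl 28.5 ± 2.81%, and in WT OC 76.1 ± 7.91% and 22.8 ± 6.58% (SD, n = 6). In WT OB the order was reversed, with Axl at 90.4 ± 1.49% and Mertk at 8.73 ± 1.44%. Null OB libraries had still more Axl, at 94.1 ± 1.04%, and less Mertk, at 5.16 ± 0.949%. These OB shares did not overlap between genotypes (exact permutation test, two-sided, p = 0.00216, the smallest that 6 against 6 allows, adjusted to 0.00794 over 11 share tests). In OC the shares of null and WT libraries differed by less than their spread, by -0.39 percentage points for Axl and 0.66 for Mertk (exact permutation test, adjusted p 0.92857 for both), although both receptors were higher in null OC. With counts not divided by length these differences were 8.75 and -9.42 points, both past the threshold. The TPM shares include short transcripts annotated as retained introns. In WT OC these included Axl-203 at 0.433 TPM and Axl-207 at 0.498 TPM, beside the coding Axl-201 at 0.586 TPM. The comparison of shares in OC thus depended on how length was treated. RANK-L in WT moved the Axl share by -5.65 points (exact permutation test, adjusted p 0.14286), and by -9.15 points with a call when full transcript lengths were used.

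**Figure D4:**
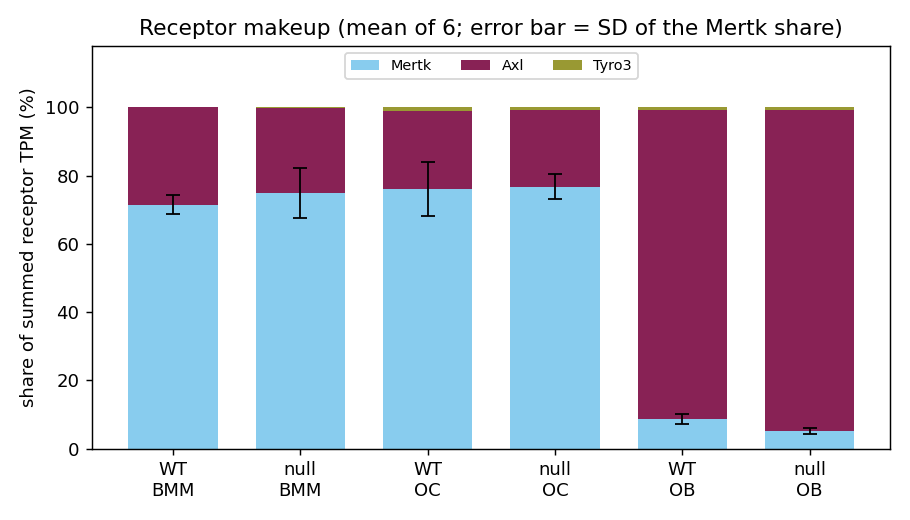
Share of each receptor in the summed TPM of Mertk, Axl and Tyro3, as the mean of 6 libraries per group, with the SD of the Mertk share as the error bar. Mertk makes up 71.5% to 76.7% in the 4 myeloid groups and 5.16% to 8.73% in the osteoblast groups.

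The balance of the ligands also differed. The log2 ratio of Gas6 to Pros1, with 1 TPM added to each, was 5.12 ± 0.196 in WT OC and 3.06 ± 0.156 in null OC (SD, n = 6), a difference of -2.05 with no overlap (exact permutation test, two-sided, p = 0.00216, adjusted to 0.00794). In osteoblasts it was 2.96 ± 0.292 in WT and 2.25 ± 0.186 in null libraries, a difference of -0.71 with overlapping ranges (exact permutation test, p = 0.00433, adjusted to 0.0119). In macrophages it was 5.70 ± 0.137 in WT and 3.20 ± 0.273 in null libraries. Gas6 outweighed Pros1 in every group.

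Mfge8 changed its transcript as well as its level. The annotation gives a long form, Mfge8-201, and a short form, Mfge8-202, that lacks coding exon 4 of the long form. This exon of 111 bases lies at chr7:79143278-79143388 (GRCm38, minus strand) and is shown because the forms differ by it. In the long form of the protein it is known to encode a stretch rich in proline and threonine.
Mfge8 exon 4: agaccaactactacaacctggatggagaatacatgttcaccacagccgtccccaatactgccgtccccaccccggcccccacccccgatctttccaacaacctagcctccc

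The short form ran from 11.5 to 18.6 TPM in WT BMM and from 114 to 134 TPM in WT OC, while the long form ran from 46.8 to 66.0 TPM and from 37.1 to 59.7 TPM. The rise of Mfge8 in WT OC thus lay in the short form. Its share of Mfge8 was 23.2 ± 4.55% in WT BMM and 71.3 ± 2.92% in WT OC, a difference of 48.2 points with no overlap (exact permutation test, two-sided, p = 0.00216, adjusted to 0.01407 over 13 isoform tests). Null OC libraries had a share of 25.1 ± 7.18%, a difference of -46.2 points from WT OC, again with no overlap (exact permutation test, adjusted p 0.01407), and null BMM libraries had 29.3 ± 5.63%. The short form was at 10.4 to 27.3 TPM in null OC and 13.2 to 19.8 TPM in null BMM. Osteoblast cultures made mostly the short form, at 88.1 ± 1.29% in WT and 83.9 ± 2.70% in null libraries. Their difference of -4.16 points passed the threshold (exact permutation test, adjusted p 0.03517) but not without WT OB replicate 4, 5 or 6. These shares are estimates from reads assigned to overlapping transcripts. Osteoclast markers were high where the short form was high in myeloid cultures, and osteoblast cultures held these markers too. Their part in the short form was not tested.

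**Figure D5:**
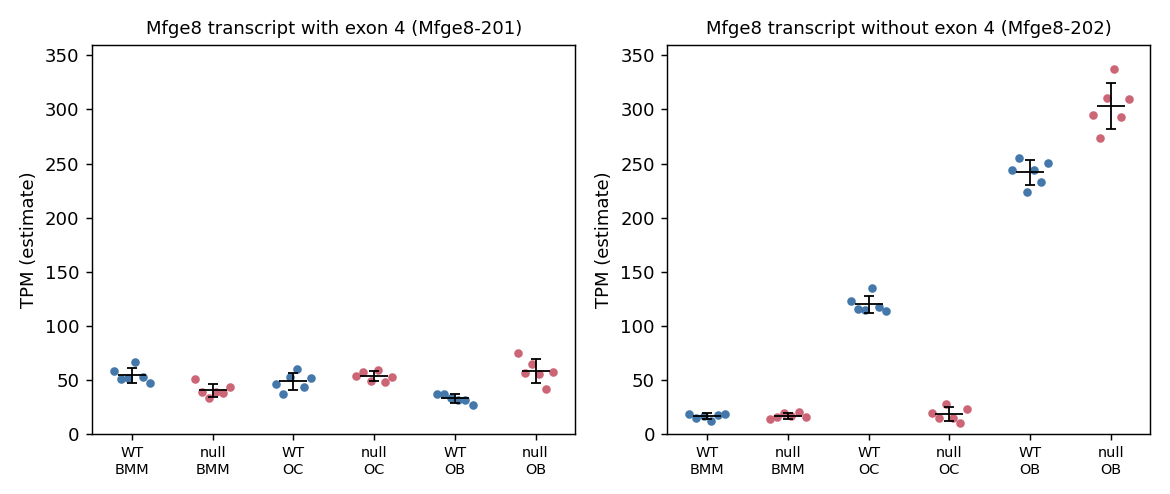
Estimated TPM of the Mfge8 transcripts with and without exon 4 in 36 libraries, on 1 common linear axis from 0, blue for WT and red for null, with the mean and SD of 6 libraries. The long form stays between 26.5 and 74.5 TPM in all groups, and the short form is above 110 TPM in WT OC and in both osteoblast groups and below 28 TPM in the others.

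The transcript shares of the other members follow. Gas6 has 1 transcript in the files. Pros1-201 made up 94.5% to 99.4% of Pros1 on average in each group. Axl-201 made up 73.6 ± 9.44% of Axl in WT BMM and 38.1 ± 21.6% in WT OC (exact permutation test, adjusted p 0.03517), a call lost in 7 of 12 tests that each left out 1 library (WT OC replicate 1, 2, 4, 5 or 6, or WT BMM replicate 3 or 4). In OC its share was 33.7 points higher in null than in WT libraries (exact permutation test, adjusted p 0.11818), and this passed the threshold without null OC replicate 3 (43.0 points) or without WT OC replicate 3 (42.4 points). The Mertk-201 and Pros1-201 shares, and those of Tyro3-201 in osteoblasts, passed the threshold in none of their tests. Tyro3-201 made up 83.6 ± 19.3% of Tyro3 in WT OB and 87.0 ± 19.9% in null OB, a wide spread. In macrophages, as a description, Mertk-201 made up 95.1 ± 3.45% of Mertk in WT and 82.9 ± 12.2% in null libraries.

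Other genes of the pathway were taken by list. In OC, of 17 other phosphatidylserine receptors and bridging proteins, 13 were tested, with 9 higher and 3 lower in null libraries and a median log2 difference of 1.24, beside -0.03 over all genes, of which 32.4% were called higher and 33.1% lower. Thbs1, the matrix protein thrombospondin that bridges dying cells to CD36, was higher by 3.34 (SE 0.15, adjusted p 7.38e-12, edgeR), from 0.632 ± 0.0874 to 5.56 ± 1.13 TPM. Itgb3, the β3 chain of the integrin that receives Mfge8 and a known osteoclast gene, was lower by a log2 difference of -5.37 (SE 0.10, adjusted p 1.74e-16), from 134 ± 19.7 to 2.78 ± 0.423 TPM. Its partner Itgav, the αv chain, was lower by -2.56 (SE 0.08, adjusted p 5.70e-14). Itgb5, the other β chain that pairs with αv to receive Mfge8, went the other way and was higher by 1.36 (SE 0.10, adjusted p 2.07e-09). The complement genes C1qa, C1qb and C1qc, macrophage products that coat dying cells, were all called higher. In osteoblasts, 14 of the 17 were tested, with 5 higher and 5 lower and a median of -0.23, against 15.5% and 16.9% of all genes. There Itgb3 rose by 0.76 (SE 0.12, adjusted p 2.83e-04) and Itgav by 0.75 (SE 0.07, adjusted p 5.41e-06), and C1qc fell by 0.91 (SE 0.09, adjusted p 7.37e-06) along with C1qa and C1qb.

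The engulfment machinery carries the signal to the cytoskeleton. In OC, 12 of its 13 genes were tested, with 9 higher, 0 lower and a median log2 difference of 0.58, against 32.4% and 33.1% of all genes. Elmo2, an adaptor that helps activate Rac, was higher by 1.01 (SE 0.07, adjusted p 9.52e-10, edgeR), from 35.5 ± 5.51 to 61.9 ± 4.88 TPM. In osteoblasts 4 of 13 were higher and 2 lower, against 15.5% and 16.9% of all genes, so that the lower share is near the background. Abca7, a lipid transporter, rose by 0.63 (SE 0.11, adjusted p 4.31e-04), and Vav1, a haematopoietic activator of Rac, fell by 0.33 (SE 0.07, adjusted p 0.00169).

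Genes that set phosphatidylserine exposure were split. In OC 3 of 6 tested (8 listed) were higher and 2 lower, with a median of 0.05, against 32.4% and 33.1% of all genes, so that the lower share is at the background. Plscr1, named for lipid scrambling, was higher by 1.11 (SE 0.08, adjusted p 2.78e-09, edgeR), and Ano6, a calcium-activated scramblase, was lower by a log2 difference of -0.47 (SE 0.07, adjusted p 1.22e-05). In osteoblasts 2 of 7 were higher, led by the flippase Atp11a at 0.34 (SE 0.08, adjusted p 0.00409), and 0 were lower, while 32.5% of all genes were called in either direction.

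TAM signalling is fed back through interferon receptors and SOCS proteins and ended by shedding of the receptor. In OC 7 of 10 genes tested (12 listed) were higher and 1 lower, with a median of 0.33, against 32.4% and 33.1% of all genes. Socs3, an inhibitor of cytokine signalling, was higher by 3.33 (SE 0.14, adjusted p 2.36e-12, edgeR), from 4.64 ± 0.662 to 37.8 ± 6.75 TPM. Adam17, the protease that sheds Mertk, was higher by 0.87 (SE 0.06, adjusted p 1.44e-09). Pik3r1, a regulatory subunit of PI3 kinase, was lower by a log2 difference of -0.82 (SE 0.11, adjusted p 4.96e-06). In osteoblasts 1 of 12 was higher, Adam10 at 0.28 (SE 0.07, adjusted p 0.00421), and 3 were lower, with Grb2, an adaptor of receptor kinases, at -0.49 (SE 0.07, adjusted p 1.22e-04). Higher calls made up 15.5% and lower calls 16.9% of all genes.

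Vitamin K-dependent carboxylation, which makes Gas6 and protein S able to bind lipid, has 3 genes here, too few to set against a share of all genes. In OC Vkorc1, which recycles vitamin K, was the 1 called higher, by 0.56 (SE 0.08, adjusted p 8.66e-06, edgeR), and in osteoblasts it was the 1 called lower, by a log2 difference of -0.24 (SE 0.09, adjusted p 0.0466). It averaged 727 ± 57.2 TPM in WT OB and 70.5 ± 5.03 TPM in WT OC (SD, n = 6).

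Of the 10 LXR, PPAR and RXR receptors and LXR targets, nuclear receptors known to raise Mertk in macrophages and their targets, 7 were higher and 3 lower in null OC, with a median of 0.98, against 32.4% and 33.1% of all genes. Mylip, an LXR target that degrades the LDL receptor, was higher by 1.76 (SE 0.14, adjusted p 1.27e-08, edgeR), and Pparg was lower by a log2 difference of -2.37 (SE 0.27, adjusted p 8.08e-07). In osteoblasts 0 were higher and 4 lower, against 15.5% and 16.9% of all genes, with Apoe, a lipid carrier, at -0.64 (SE 0.08, adjusted p 4.51e-05). Apoe averaged 12529 ± 595 TPM in WT OB and 8732 ± 1416 TPM in WT BMM. In macrophages, as a description, Nr1h3, which encodes LXRα, averaged 38.7 ± 5.83 TPM in null and 8.10 ± 2.24 TPM in WT libraries, Pparg 1.54 ± 0.341 and 8.85 ± 0.671 TPM, and Socs3 32.0 ± 7.37 and 3.38 ± 0.634 TPM. In these libraries Cd300lf, a myeloid lipid receptor, averaged 32.2 ± 6.47 TPM in null and 94.4 ± 17.9 TPM in WT.

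The genes most like each member over all 36 libraries were found by Pearson's r of log2 CPM among 8935 genes with a mean of at least 10 CPM. These values share libraries and 6 groups and describe this series only. Gas6 was followed by Paox (r = 0.98), a polyamine oxidase, Fcgr2b (0.97), the inhibitory Fc receptor, and Slc9a9 (0.94). Mertk was followed by Fcgr3 (0.97), an activating Fc receptor, Ssh2 (0.97) and the iron exporter Slc40a1 (0.97). Axl was followed by Kank2, Enpp1 and Ddah2 (each 0.98), and Pros1 by Plxdc2 (0.99), Ccnd2 (0.98) and Emilin1 (0.98). Mfge8 was followed by Capn6, Col15a1 and Vcl (each 0.98), and Tyro3 by Sulf1, Pcdh18 and Rflnb (each 0.93). The lists of Gas6 and Mertk share no gene. Fcgr2b averaged 757 TPM in WT BMM and 109 TPM in null BMM, where Gas6 averaged 1580 and 269 TPM. Vcl averaged 17.3 TPM in WT OC and 3.24 TPM in null OC, where Mfge8 averaged 168 and 71.3 TPM. Both genes were picked for likeness over these same libraries, so nothing is read from these values.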

How the data were processed

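Total RNA of 36 samples was sequenced. Per the file headers, the authors deposited for each library a table of transcripts with a length, an effective length, a TPM value and an estimated count. Per the submitters' processing notes the tools were kallisto and DESeq2, with no versions, and the build GRCh38, a human build, although the transcript identifiers are mouse. Of 88198 transcripts, 97.54% were matched to GENCODE M21 (GRCm38), and the unmatched ones (0.629% to 0.974% of counts) were not used.

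Estimated counts were summed per gene and rounded. After filterByExpr and TMM scaling, the test was that of edgeR 4.0.16 (quasi-likelihood F test, robust; limma 3.58.1, R 4.3.3), with Benjamini-Hochberg adjustment over all genes and a threshold of 0.05. Genotypes were compared within 12 libraries, RANK-L responses within 24 and cell types within 36. Levels are the deposited TPM summed per gene. Overlap of ranges is described for the named genes and lists only, with no share over all genes beside it. Shares, the ligand ratio and isoform shares were compared by exact permutation over libraries (SciPy 1.17.1). Scripts were tested on simulated data. The floor of 3 counts covers counting error only.

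The members and lists were chosen with earlier results of these data known. Named beside the members are the 3 genes most like each member. In each pathway list, for the genotypes in OC and in OB, the most changed genes called higher and lower are named (from 5 CPM on average). In macrophages only Nr1h3, Pparg, Socs3 and Cd300lf are given of the genes so picked. The macrophage values of the others, Thbs1, Ptk2 and Plscr1 (higher) and Crkl, Ano6, Pik3r1 and Ggcx (lower), are not given. Itgav, Itgb5, Adam17 and the C1q genes were named after their values were seen, as were Axl-207, Fcgr2b and Vcl for their values. The 6 pathway lists and the lists of macrophage, osteoclast and osteoblast markers are in the results. Of the other lists, dendritic cell and lymphocyte markers summed to at most 3.10 and 1.81 TPM in any library. Neutrophil markers reached 105 TPM in null BMM through S100a8, with Elane and Retnlg listed at 0 there. Megakaryocyte markers reached 4793 TPM in null BMM through Pf4, endothelial markers 191 TPM through Pecam1, and adipocyte markers 619 TPM in WT OC through Lpl, with Adipoq and Plin1 listed at 0. Mean megakaryocyte sums were 775 TPM in WT BMM, 4087 in null BMM, 132 in WT OC and 3460 in null OC. In the same order neutrophil sums averaged 1.36, 71.2, 0.971 and 48.1 TPM, and adipocyte sums 393, 135, 532 and 163 TPM. The part of these markers in the genotype differences was not tested. Alternatives were RLE scaling, other filters, DESeq2 1.42.0, voom quality weights, log2(TPM + 1), the replicate block, 2 length offsets, a fit of 36 libraries and leaving out each library. Leaving out null OC replicates 3 and 6 together was chosen after seeing the data. Mir324 levels were not analysed here.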

Additional observations from a re-analysis of the deposited data

Results flagged for a closer look

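Among the 36 sets of 6 libraries, 1 per gene and group, 5 had a library standing apart from the other 5 by Dixon's test, which chance alone flags in about 1 in 20 sets. Gas6 was at 318 TPM in null BMM replicate 6, above the rest of that group. Mfge8 was at 58.6 TPM in null OC replicate 5, below the rest of its group. The other 3 concern Tyro3 near the detection floor, at 0.023 TPM in WT BMM replicate 2, 0.226 TPM in null BMM replicate 5 and 0.524 TPM in WT OC replicate 2.

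The genotypes differed in their response to RANK-L, on the log2 scale, by 2.71 for Gas6, 2.50 for Pros1, 3.98 for Axl, 2.69 for Mertk and -0.80 for Mfge8. These values contain the macrophage contrast that the set was chosen on, and no p is given. The genotype difference in osteoblasts minus that in OC was -0.89 for Gas6, -2.43 for Pros1, -3.23 for Tyro3, -2.11 for Axl, -1.89 for Mertk and 1.22 for Mfge8. All but Tyro3 were past the threshold in edgeR's test of the difference itself, and Axl was not on the log2(TPM + 1) scale (-0.39). Tyro3 passed the filter only through the osteoblast libraries and was near 0 in OC, so its value is no test.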

How the results depend on the processing

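The direction of every called fold change of Gas6, Pros1, Axl, Mertk and Mfge8 was the same under all alternatives run, and the calls lost are named beside the results, apart from those lost with the replicate block, given below, and Mfge8 in BMM, which is given with no test and was past the threshold in 6 of 10 alternatives. For Tyro3 the genotype difference in OB minus that in OC turned from -3.23 to 0.10 on the log2(TPM + 1) scale. That scale moved the median of all genes by -0.14 in BMM, -0.17 in OC and 0.14 in OB. With each library's trend with length removed, 2101 genes were called between the OB genotypes in place of 4420. For null OC against null BMM, 1628 genes were called, 1013 with voom quality weights and 810 to 2143 with 1 library left out (840, 810 and 948 without null BMM replicates 2, 3 and 4, and 1046 without null OC replicate 3). The members called there went from 1 to 0 with voom and without null OC replicates 3 and 6. The cause was not tested.

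With counts not divided by length, the difference between null and WT OC was 8.75 points for the Axl share and -9.42 for the Mertk share, both past the threshold. RANK-L moved these shares in WT by -15.2 and 15.0 points with such counts and by -9.15 and 8.30 points with full transcript lengths, each then past the threshold. With 1 library left out, the Axl-201 share differed by 28.1 to 43.0 points between null and WT OC and by -44.1 to -32.7 points between WT OC and WT BMM, and the Mfge8-202 share by -4.89 to -3.35 points between the OB genotypes.

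The replicate numbers did not pair the samples: in no pair of groups were the deviations of all 6 same-numbered pairs correlated above 0.1, and 0 to 2 of 6 libraries correlated best with their own number. With the replicate block, the Gas6 difference in OC was 0.26 and not called, so that 4 members in place of 5 were called there, and elsewhere the block changed no call of a member but that of Mfge8 in BMM. The block test of shares flips signs over 6 pairs and cannot go below 0.03125 (exact), so no share passed after adjustment: the values stay at 3.68 (Axl) and -3.57 (Mertk) points in OB, -2.05 and -0.71 for the ligand ratio in OC and OB, -35.5 points for Axl-201 in WT OC against BMM, and -46.2, -4.16 and 48.2 points for Mfge8-202.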
